A study of Mus musculus with 27 samples.

Results

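Thymic regulatory T cells (Tregs) labelled as low in CD24, a marker lost during maturation, were compared with Foxp3- thymocytes of the same CD24 label. The comparison rests on 6 of the 27 arrays of the series: 3 of Foxp3+GFP+ CD24low thymocytes and 3 of Foxp3-GFP- CD24low thymocytes, chosen by those labels and written below as Foxp3+ CD24lo and Foxp3- CD24lo. All cells of these 6 arrays came from the thymus of BALB/c mice, and both of their groups carried a GFP label that followed Foxp3. The reporter's construction, the age of the mice, the number pooled and the CD24 limits of the sort are not given in the sources used here. The series design treats Foxp3- cells as conventional T cells, although their source label also contains the word Treg.

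Foxp3 is the transcription factor that defines Tregs, which restrain immune responses and in the thymus arise from CD4 cells that met self antigen and received IL-2. CD24 is a surface protein that developing T cells lose as they mature, so a low level marks the most mature cells. A gate set by low CD24 and the absence of Foxp3 can hold newly made conventional T cells together with mature innate-like T cells that stay in the thymus. Such cells, among them natural killer T (NKT) cells and some gamma delta T cells, depend on the factor PLZF, encoded by Zbtb16, and carry natural killer (NK) receptors such as CD94, encoded by Klrd1.

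The other arrays, 3 per group, held Foxp3+ and Foxp3- thymocytes at intermediate and high CD24 (CD24int, CD24hi), Treg precursors, and, from lymph node, Tregs and naive T cells. All values are log2 intensities of RMA-processed probe sets, and every difference is Foxp3+ minus Foxp3- on that scale unless stated otherwise. Correlations between replicate arrays ran from 0.993 to 0.997 in the Foxp3+ CD24lo group and from 0.992 to 0.996 in the Foxp3- CD24lo group. Separate animals or sorts are not stated for the replicates, and p-values therefore cover only the scatter among these samples, which may be technical. Precision is limited by the number of arrays, and the median standard error (SE) of a difference at CD24lo was 0.15. In bulk samples, fewer cells of a type and less RNA per cell cannot be told apart.

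The targeted marker followed the labels. Foxp3 read 9.83, 9.97 and 9.90 in the Foxp3+ CD24lo arrays and 3.82, 3.98 and 3.68 in the Foxp3- CD24lo arrays, a difference of 6.08 ± 0.17 (SE, limma, adjusted p = 2.1e-18); the Foxp3- level lies near the bottom of the scale, so no fold is given. The groups lay far apart, and Foxp3 of the lymph node Tregs was at 9.90 ± 0.14 (SD, n = 3). Cd24a, the gene of the sorting marker, was not equal between the gates. It read 7.16, 7.89 and 7.83 in Foxp3+ cells and 5.08, 6.62 and 6.32 in Foxp3- cells, a difference of 1.62 ± 0.42 (adjusted p = 0.0057) that was 1.16 (adjusted p = 0.064) without Foxp3- CD24lo replicate 1. The part of this difference in the results below was not tested. Rag1, a recombinase gene of immature thymocytes named after its values were seen, was low in both groups (3.63 ± 0.27 and 3.49 ± 0.31, SD, n = 3). Cd3e, a subunit of the T cell receptor complex, differed by 0.02 ± 0.10 (adjusted p = 0.95), and Cd4 by 0.37 ± 0.16 (adjusted p = 0.11).

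Of 18194 genes, 1792 (9.85%) were higher and 2037 (11.2%) were lower in Foxp3+ CD24lo cells at an adjusted p under 0.05. A requirement of at least a 2-fold change left 569 higher (3.13%) and 543 lower (2.98%). The arrays of the groups did not overlap for 33.5% of all genes. The median difference over all genes was -0.01. Leading the rises were Plagl1 (a zinc finger factor, 6.14 ± 0.23), Foxp3, Il2ra (the high-affinity IL-2 receptor chain, 5.85 ± 0.20) and Itgb8 (an integrin chain that activates TGF-beta, 5.57 ± 0.18). Leading the falls, Klrd1 differed by -7.20 ± 0.39, Klra5 (an NK receptor of the Ly49 family) by -7.07 ± 0.47, Trgv4 (a gamma chain variable segment) by -6.39 ± 0.41 and App (the amyloid precursor protein) by -6.27 ± 0.43. The low group of such genes lies near the bottom of its probe set's scale, so sizes are not ranked between rises and falls. For Plagl1 the other probe sets moved much less, by 0.69 and 1.12, and App had another probe set at -3.76.

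Whether a difference was shared between CD24 stages or held for the low CD24 gate was read against the CD24int arrays, where 15.3% of genes passed (8.66% higher, 6.62% lower). A difference was called shared where it passed in the same direction at CD24int. It was assigned to the CD24lo gate where it did not pass that way at CD24int and the difference of the differences passed in the direction seen at CD24lo. Shared genes numbered 1052 higher (5.78% of all genes) and 766 lower (4.21%), and gate genes 133 higher (0.731%) and 412 lower (2.26%). The remaining 607 higher (3.34%) and 859 lower (4.72%) were undecided. Over all genes the difference of differences passed for 4.97%, with 256 higher (1.41%) and 649 lower (3.57%). The 133 gate rises fell to 86 without Foxp3- CD24lo replicate 1. Foxp3, Ctla4 and Ccr6 thus lay in the shared class and Klrb1a in the gate class, whereas Klrd1 and Zbtb16 were lower at both stages and more so at CD24lo.

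**Figure D1:**
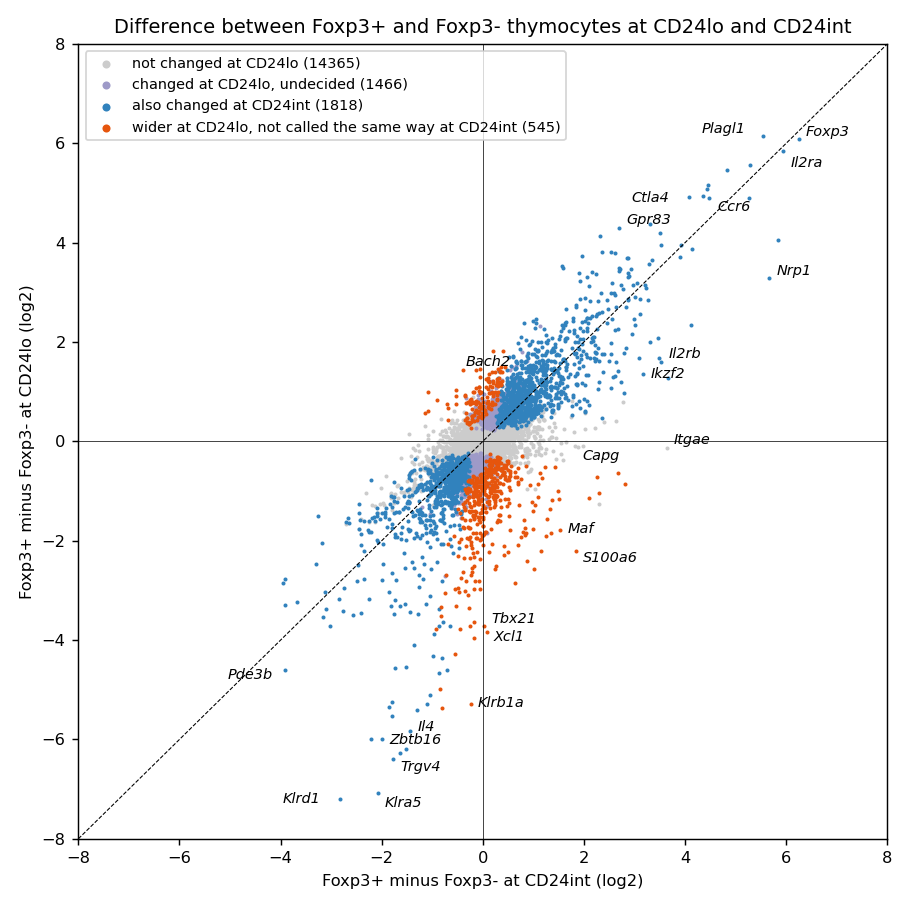
Difference between Foxp3+ and Foxp3- thymocytes at CD24lo (vertical axis, log2) against the difference at CD24int (horizontal axis, log2), 1 point per gene, with the line of equal difference dashed. Treg genes such as Foxp3 and Ccr6 lie near the line, while Zbtb16, Klrd1, Il4 and Klrb1a lie well below it and Itgae, Capg, Maf and S100a6 sit to the right with no rise at CD24lo.

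The steps from CD24int to CD24lo differed in the number of genes called. Whether they reflect maturation or a change in the mix of cells was not tested. From CD24int to CD24lo, Foxp3+ cells changed in 3 genes (0.0165% of those tested, 0.0110% higher and 0.00550% lower): Arrdc4 rose by 0.90 (adjusted p = 0.0014), Prg4 rose by 1.53 (adjusted p = 0.0042) and Fibcd1 fell by 1.05 (adjusted p = 0.039). These 3 genes are named because the count is small, after their values were seen. A gene that did not pass is not thereby unchanged. The step counts came from a model with no term for replicate number and were not repeated with one. Cd24a did not pass over this step in Foxp3+ cells. It read 8.47, 9.25 and 9.52 at CD24int and 7.16, 7.89 and 7.83 at CD24lo, lower for each replicate number. Foxp3- cells changed in 12.0% of genes over the same step, with 1430 higher (7.86%) and 752 lower (4.13%). Of the 412 gate falls, 408 had risen in Foxp3- cells (median step 1.20) and the median step in Foxp3+ cells was 0.02. Of the 133 gate rises, 128 had fallen in Foxp3- cells (median step -0.85). These steps use the same arrays as the differences they accompany and only describe them.

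Lineage factors of Tregs were mostly higher in Foxp3+ cells. Of 20 measured lineage factors, 13 rose and 1 fell, with a median difference of 0.95. Over all genes 9.85% rose and 11.2% fell at CD24lo, and these shares stand beside every list count below. Ikzf4 (Eos, a partner of Foxp3) read 10.90, 10.72 and 10.85 in Foxp3+ cells and 6.81, 7.12 and 7.10 in Foxp3- cells, a difference of 3.81 ± 0.12 (adjusted p = 1.9e-17). Its lead was wider than at CD24int by 1.28 (adjusted p = 1.4e-05). Nr4a3, an orphan nuclear receptor induced by antigen signalling, rose by 2.34 ± 0.13, and Rel, the NF-kB subunit needed for Treg development, by 1.65 ± 0.18. The single fall was Ikzf1 (Ikaros), at -0.56 ± 0.11 (adjusted p = 5.7e-04), named after its value was seen. It was lower at CD24int as well, by 0.92.

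IL-2 receptor and STAT5 genes were higher in Foxp3+ cells, with 9 rises and 2 falls among 14 measured and a median of 1.17. IL-2 signals through a receptor of alpha, beta and gamma chains to STAT5, which induces the feedback inhibitors Cish and Socs2. Il2ra read 9.97, 10.09 and 10.17 against 4.43, 3.85 and 4.39 with no overlap. Socs2 read 10.05, 9.60 and 9.74 against 6.08, 5.53 and 5.62, a difference of 4.05 ± 0.22. Cish read 10.61, 10.30 and 10.42 against 7.42, 7.38 and 7.70, a difference of 2.94 ± 0.13 (adjusted p = 1.2e-14). Both transducers also rose, Stat5a by 2.09 ± 0.12 and Stat5b by 1.19 ± 0.09. Il7r, the receptor chain of naive cell survival, fell (-1.68 ± 0.34) and so did Il2 itself (-0.81 ± 0.22).

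Promoters of Cish and of the chemokine receptor Ccr6, both higher in Foxp3+ cells at every CD24 stage, are shown with matches to the STAT motif TTCNNNGAA in capitals. The windows run from 250 bases before to 50 after the start site in RefSeq's GRCm38.p6 annotation, on the gene's own strand. Cish lies at chr9:107296409-107296708 (+), with a match that begins at the start site and another 11 bases downstream. Ccr6 lies at chr17:8235793-8236092 (+), with matches that begin 157 and 120 bases upstream.
Cish: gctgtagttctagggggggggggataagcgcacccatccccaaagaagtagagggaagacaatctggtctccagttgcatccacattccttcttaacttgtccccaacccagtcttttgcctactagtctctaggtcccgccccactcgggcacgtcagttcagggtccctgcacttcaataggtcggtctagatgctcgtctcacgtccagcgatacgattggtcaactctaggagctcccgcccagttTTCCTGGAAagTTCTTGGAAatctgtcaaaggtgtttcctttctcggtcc
Ccr6: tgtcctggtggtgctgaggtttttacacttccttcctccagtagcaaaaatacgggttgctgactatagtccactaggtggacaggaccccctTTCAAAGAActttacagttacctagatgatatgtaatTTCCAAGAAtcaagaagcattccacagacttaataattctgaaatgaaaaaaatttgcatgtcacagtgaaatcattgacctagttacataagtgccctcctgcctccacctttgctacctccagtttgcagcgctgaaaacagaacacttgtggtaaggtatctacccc
The motif occurred on either strand in 8.3% of 32851 promoter windows and in 7.66% of windows of genes in the shared rising class. It occurred in 3 of the 15 windows of the IL-2 and STAT5 list, a share not particular to that list. Other lists described below had it in 8 of 26 windows (TNF receptor and NF-kB) and 4 of 23 (NK receptors). The innate-like cytokine list had it in 4 of 22 windows and the cytotoxic list in 3 of 16. A match describes letters in the window and says nothing of binding.

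TNF receptor and NF-kB genes were also higher, with 14 rises and 3 falls among 23 measured and a median of 0.64. All 14 rises were of the shared class, whose rises made up 5.78% of all genes. Signals through TNF receptor family members support Treg maturation in the thymus. Tnfrsf4 (OX40) read 12.15, 12.20 and 12.17 in Foxp3+ cells and 7.93, 8.50 and 8.73 in Foxp3- cells, a difference of 3.79 ± 0.18. Tnfrsf9 (4-1BB) rose by 3.39 ± 0.27 and Tnfrsf18 (GITR) by 2.56 ± 0.14. The surface protein gene Cd83 read 9.50, 9.70 and 9.82 against 4.68, 4.46 and 5.20, a difference of 4.89 ± 0.19. Relb and Birc3, genes of the NF-kB pathway and its targets, rose by 1.14 ± 0.11 and 1.74 ± 0.10. The falls, named after their values were seen, were small: Tnfrsf1a -0.50, Cd40 -0.40 and Ltbr -0.38, and such falls numbered 0 to 4 under the alternatives tried.

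Suppression and surface genes of Tregs showed 15 rises and 4 falls among 25 measured, with a median of 0.91. Ctla4, the inhibitory receptor that limits co-stimulation, read 11.30, 11.71 and 11.20 against 6.42, 6.75 and 6.27, a difference of 4.93 ± 0.32 (adjusted p = 9.1e-12). Itgb8 read 7.92, 8.24 and 8.28 against 2.77, 2.41 and 2.56. Penk, the enkephalin precursor, read 9.65, 10.21 and 10.43 against 4.63, 4.41 and 4.87. None of these overlapped between the groups, and each differed by a like amount at CD24int (4.08, 5.29 and 4.84 for Ctla4, Itgb8 and Penk). Gpr83, a G protein-coupled receptor of Tregs, differed by 4.30 ± 0.20 at CD24lo and 2.70 at CD24int. The gap widened by 1.61 (adjusted p = 6.2e-04) while Foxp3+ cells were level (12.06 ± 0.06 at CD24int and 11.99 ± 0.15 at CD24lo, SD, n = 3) and Foxp3- cells went from 9.37 ± 0.23 to 7.68 ± 0.43.

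Several classical Treg genes, in contrast, were also abundant in the Foxp3- CD24lo cells. Itgae (CD103, an integrin chain of tissue T cells) read 11.29, 11.38 and 11.55 in Foxp3+ cells and 11.71, 11.43 and 11.47 in Foxp3- cells. These arrays overlapped, and the difference of -0.13 ± 0.42 (adjusted p = 0.90) contrasts with 3.63 at CD24int and 6.42 in lymph node; the CD24lo difference was smaller than that at CD24int by -3.77 ± 0.60 (adjusted p = 1.6e-04). Capg, an actin-capping protein gene, behaved in the same manner (-0.08 ± 0.11 at CD24lo, 1.82 at CD24int, difference of differences -1.90, adjusted p = 2.6e-08). Myb, a transcription factor, differed by 0.28 ± 0.17 (adjusted p = 0.32) at CD24lo and by 2.22 at CD24int. Ikzf2 (Helios), a factor widely used to mark thymic Tregs, kept a difference of 1.35 ± 0.17 from levels of 12.55, 12.52 and 12.48 against 11.44, 11.17 and 10.89. At CD24int it had been 3.17, and the narrowing of 1.82 passed (adjusted p = 1.4e-05).

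Nrp1 (neuropilin-1, a surface marker of thymic Tregs) read 11.10, 11.69 and 11.70 against 8.17, 8.02 and 8.44. The groups stayed apart by 3.29 ± 0.23, but the difference was narrower than at CD24int by 2.38 (adjusted p = 1.9e-05). Il2rb, the IL-2 receptor beta chain also used by IL-15, read 10.83, 10.58 and 10.61 against 9.18, 9.09 and 8.95, a difference of 1.60 ± 0.18 that had been 3.53 at CD24int. Foxp3- cells had gained 1.96 in Il2rb and 3.00 in Nrp1 from CD24int to CD24lo. Tnfrsf1b (TNF receptor 2) followed the same order, at 0.81 ± 0.16 against 1.90. Of the 1575 genes higher in Foxp3+ cells at CD24int, 1052 were higher at CD24lo, 464 did not pass and 59 were lower. For 160 of those no longer higher the difference of differences passed, and in 158 of them Foxp3- cells had risen from CD24int to CD24lo. The Foxp3- step is itself a part of the difference of differences, so the last count only describes these genes.

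**Figure D2:**
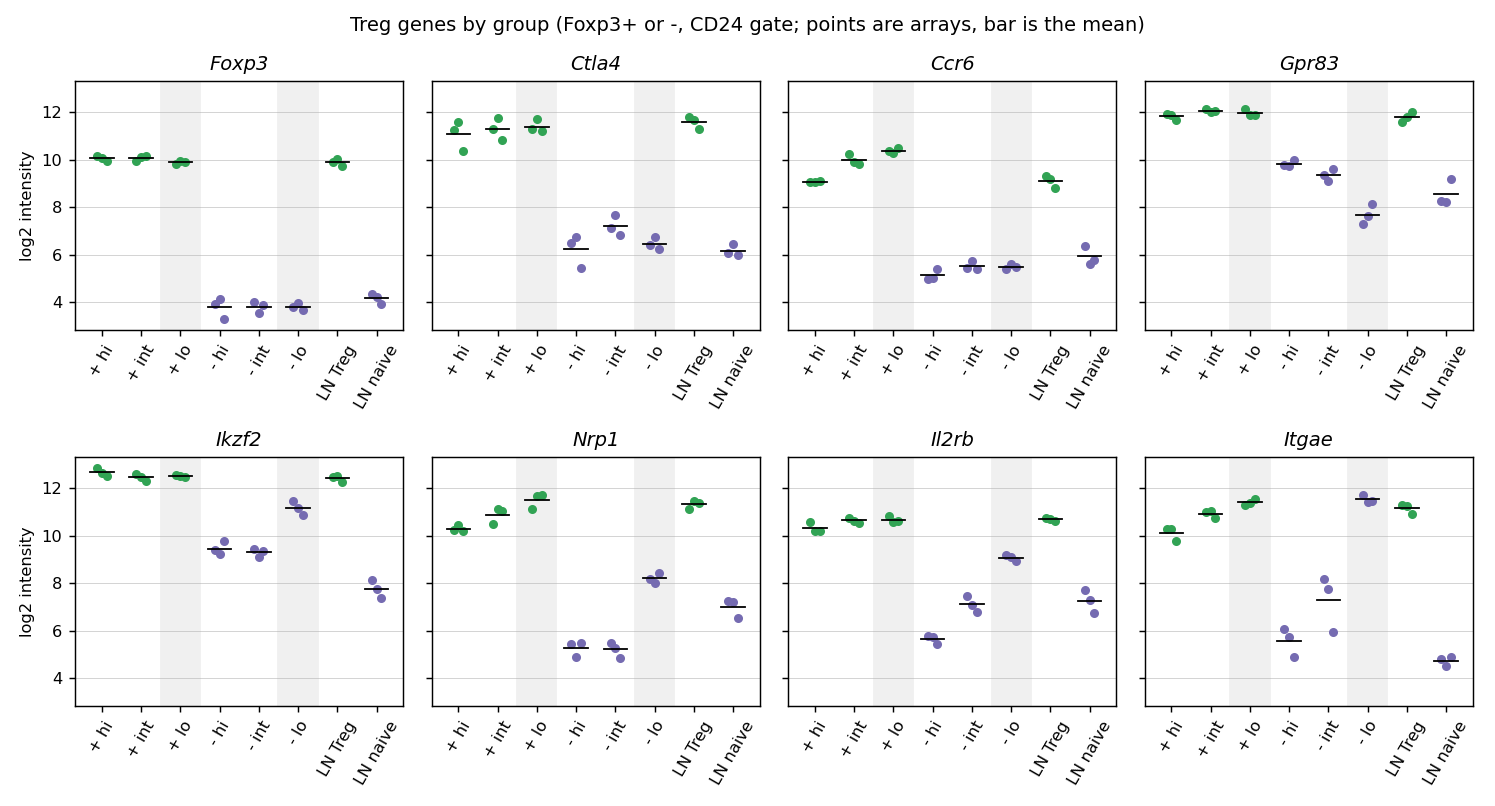
Level (log2 intensity, vertical axis) of 8 Treg genes in Foxp3+ (green) and Foxp3- (purple) thymocytes by CD24 gate and in lymph node (LN) Tregs and naive T cells; each point is an array, the bar is the mean, and the CD24lo groups are shaded. Foxp3, Ctla4 and Ccr6 stay apart by at least 3.18 in every pair, whereas the Foxp3- CD24lo arrays reach 11.54 on average for Itgae, level with Foxp3+ cells.

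The 4 falls of the suppression list were Gzmb (granzyme B), Fgl2, Pdcd1 (PD-1) and Icos, an inhibitory and an activating receptor of stimulated T cells among them. Gzmb read 5.69, 6.05 and 6.34 in Foxp3+ cells and 9.15, 8.83 and 9.02 in Foxp3- cells, a difference of -2.97 ± 0.33 (adjusted p = 1.2e-07). The other 3, named after their values were seen, differed by -1.90 (Fgl2), -1.55 (Pdcd1) and -1.40 (Icos) with non-overlapping arrays. Fgl2, Pdcd1 and Icos had been higher in Foxp3+ cells at CD24int, by 1.25, 1.27 and 1.00. All 4 were higher in lymph node Tregs than in naive cells, by 3.29, 3.43, 1.96 and 2.83.

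Chemokine and egress receptors split, with 5 rises and 8 falls among 20 measured and a median of -0.10. Ccr6, a receptor for the chemokine CCL20, read 10.36, 10.31 and 10.52 in Foxp3+ cells and 5.39, 5.63 and 5.48 in Foxp3- cells, a difference of 4.90 ± 0.18 (adjusted p = 2.6e-16). Its difference was 4.47 at CD24int, 3.94 at CD24hi and 3.18 in lymph node. Cxcr5, the receptor that guides cells to B cell follicles, read 7.32, 7.30 and 7.07 against 3.39, 3.63 and 3.27. Ccr7, the receptor for entry to lymph nodes, was 1.27 ± 0.15 higher at CD24lo and 0.11 higher at CD24int (adjusted p = 0.77), since Foxp3- cells fell by 1.24 between the gates. In the other direction, Cxcr6, a receptor of NKT and effector cells, read 3.19, 4.50 and 3.93 against 9.39, 10.03 and 10.19. Ccr10 differed by -4.60 ± 0.23 and Ccr2 by -2.21 ± 0.47, although both were higher in lymph node Tregs than in naive cells (by 1.88 and 2.86).

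Factors linked to innate-like T cells moved both ways. Among 19 measured transcription factors and adaptors of the list, 8 fell and 6 rose in Foxp3+ cells, with a median of -0.55. Of the 8 falls, 5 were shared with CD24int, 2 were of the CD24lo gate and 1 was undecided. Falls of these classes made up 4.21%, 2.26% and 4.72% of all genes. Zbtb16 read 5.00, 4.68 and 5.04 in Foxp3+ cells and 11.17, 10.91 and 10.61 in Foxp3- cells, a difference of -5.99 ± 0.39 (adjusted p = 1.1e-11); other probe sets gave -6.56 and -2.17. The group means were 10.90 ± 0.28 in Foxp3- CD24lo cells, 6.89 ± 0.89 in Foxp3- CD24int cells, 5.18 ± 0.48 in Foxp3- CD24hi cells and 6.69 ± 0.16 in naive lymph node cells (SD, n = 3). All 3 Foxp3+ thymic groups lay between 4.90 and 4.96. The Foxp3- CD24int arrays were unequal, at 7.52, 7.28 and 5.88. The same array (replicate 3) was the lowest of its group for Klrd1 (4.86 against 6.64 and 6.52) and Itgae (5.94 against 8.15 and 7.77). Replicate 3 was also the lowest array for Zbtb16, Klrd1 and Itgae in Foxp3- CD24hi cells and in Treg precursors. Itgae read 6.07, 5.75 and 4.87 in the Foxp3- CD24hi arrays and 8.88, 9.11 and 7.17 in the precursors. At Foxp3- CD24lo, replicate 3 was the lowest for Zbtb16 and Klrd1 but not for Itgae. Tbx21 (T-bet, the factor of type 1 responses) read 4.70, 4.78 and 4.93 against 8.55, 8.57 and 8.45 and differed by 0.02 at CD24int. Sox13, a factor of gamma delta T cells, differed by -3.71 ± 0.21, Id2 by -2.79 ± 0.18 and Runx3 by -1.57 ± 0.16.

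The list's rises were Slamf1 (2.00 ± 0.10), Eomes (1.77 ± 0.18), Nfil3 (1.57 ± 0.26), Gata3 (0.72), Cd1d1 (0.71) and Rora (0.61), all of the shared class; Gata3 and Rora are named after their values were seen. Eomes, a factor of NK and memory CD8 cells, read 7.51, 7.05 and 7.20 in Foxp3+ cells and 5.32, 5.42 and 5.72 in Foxp3- cells. Cd1d1 encodes the molecule that presents lipids to NKT cells. Like these rises, the falls Id2, Runx3 and Tbx21 are known from other T cells too.

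NK cell receptors fell in 13 of 19 measured members, with a median of -0.94. Of these falls 6 were shared with CD24int, 4 were of the CD24lo gate and 3 were undecided. Over all genes, falls of those classes made up 4.21%, 2.26% and 4.72%. Falls numbered 11 to 13 across the alternatives that kept all members. Klrd1 read 2.50, 2.39 and 2.71 in Foxp3+ cells and 10.11, 9.60 and 9.50 in Foxp3- cells. Klra5 read 3.47, 3.22 and 3.09 against 10.74, 10.35 and 9.90. Klrb1a, of the NKR-P1 family, read 2.56, 2.83 and 2.46 against 7.60, 8.06 and 8.01. The mean over every other group of the series lay between 2.61 and 3.04. Its difference of -5.28 ± 0.17 was -0.24 at CD24int, and the difference between the gates was -5.04 ± 0.24 (adjusted p = 8.3e-13). Klrc1 (NKG2A, the partner of CD94) differed by -4.67 ± 0.25, Klrk1 (NKG2D) by -3.27 ± 0.22 and Cd160 by -2.86 ± 0.27. Values near the bottom of the scale compress a difference; calls of presence or absence were not used here. The 6 members that did not pass, such as Klra8 (-0.18) and Klrc2 (0.07), had group means between 2.37 and 3.13.

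Gamma delta T cell receptor segments were among the most different genes. Trgv4 read 5.92, 6.24 and 5.80 in Foxp3+ cells and 12.40, 12.30 and 12.42 in Foxp3- cells, and Trgv1 read 6.35, 6.19 and 5.81 against 12.38, 12.28 and 12.24. These gene segments are close copies of each other and their probe sets may share transcripts, so the values cannot be assigned to a single segment. The list held 26 symbols of the gamma and delta loci, among them alternative names of the same genes. Only 2 genes, Trgv4 and Trgv1, were measured by a probe set with a single symbol. The difference was -1.78 for Trgv4 and -1.52 for Trgv1 at CD24int, and -0.46 and -0.32 (not passing) at CD24hi.

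Cytokines and cytokine receptors of innate-like T cells fell in 12 of 21 members and rose in 2, with a median of -1.10. Il4 read 3.57, 3.63 and 3.48 in Foxp3+ cells and 10.00, 9.09 and 9.10 in Foxp3- cells, a difference of -5.83 ± 0.38 (adjusted p = 9.6e-12). IL-4 is made in the thymus by NKT cells that express PLZF. Ifng, the cytokine of type 1 responses, read 6.05, 6.60 and 5.88 against 9.57, 9.41 and 9.49 and differed by -0.53 (adjusted p = 0.53) at CD24int. Il17rb, a receptor for IL-25, differed by -3.77 ± 0.34, and the IL-18 receptor genes Il18rap and Il18r1 by -2.81 ± 0.25 and -2.51 ± 0.40. Il17a, named after its value was seen, did not pass (-0.28 ± 0.22). The rises were the receptor genes Ifngr1 (1.47 ± 0.15) and Il4ra (1.35 ± 0.10), the latter named after its value was seen. Il4ra had differed by 0.13 at CD24int, and the widening of 1.22 passed (adjusted p = 1.2e-06).

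Cytotoxic and effector genes fell in 10 of 15 members and rose in 2, with a median of -0.84. Fasl, the ligand of the death receptor Fas, read about as low as the bottom of the scale in Foxp3+ cells (mean 3.39) and 7.49 in Foxp3- cells, a difference of -4.10 ± 0.40. Gzma, another granzyme gene, differed by -3.34 ± 0.36 and Fcer1g, an adaptor of Fc and NK receptors, by -2.07 ± 0.24. Nkg7, a granule protein gene, read 8.18, 8.67 and 9.17 against 9.39, 9.74 and 9.99. Its difference of -1.03 ± 0.37 only just passed (adjusted p = 0.047) and was lost under 6 alternatives (adjusted p = 0.0504 to 0.227), while at CD24int it had been 2.30 higher. Hopx, a gene induced in effector T cells and Tregs, rose by 2.34 ± 0.22, against 4.12 at CD24int.

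**Figure D3:**
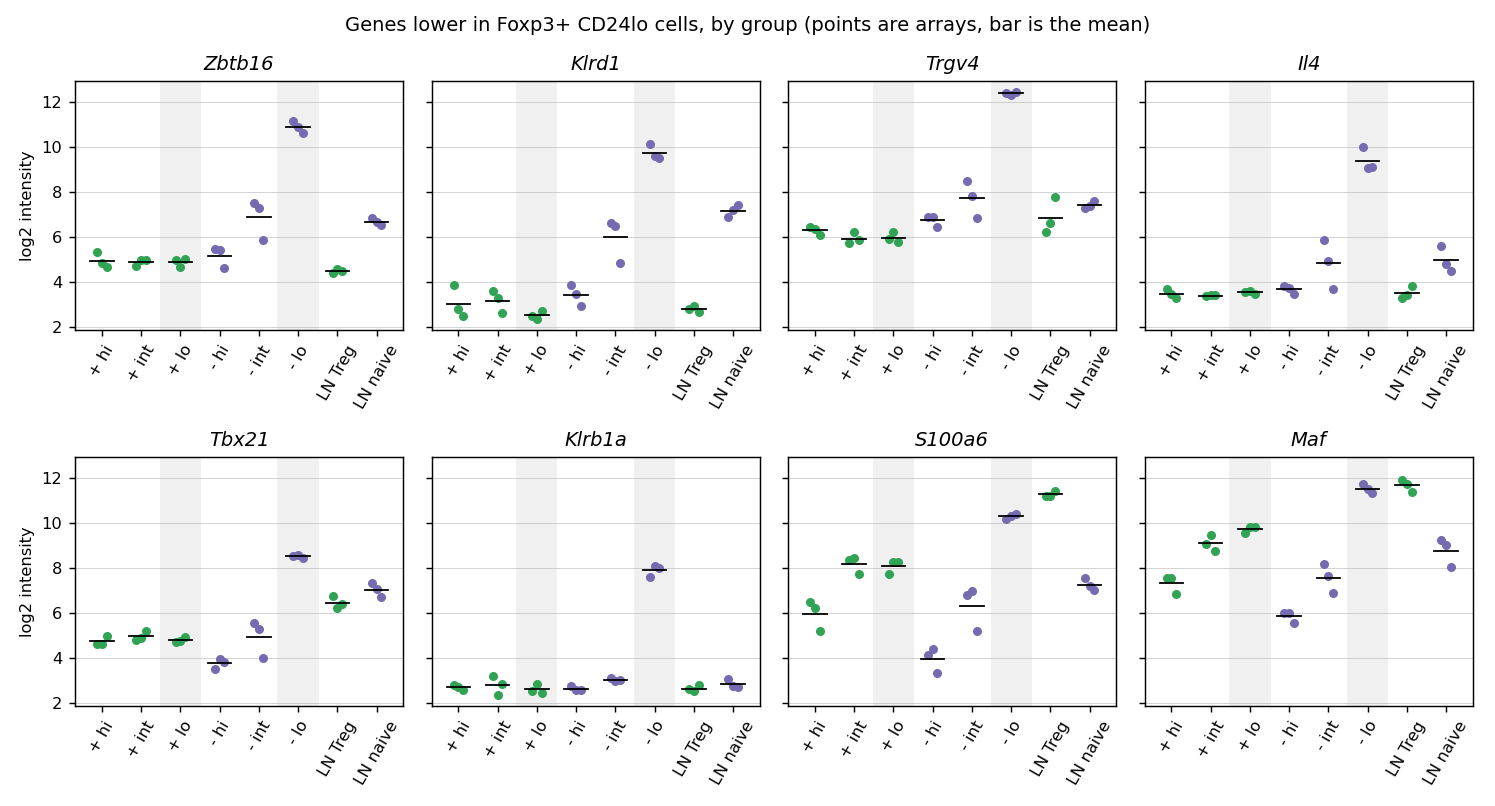
Level (log2 intensity, vertical axis) of 8 genes that were lower in Foxp3+ CD24lo than in Foxp3- CD24lo cells, by CD24 gate and in lymph node (LN) Tregs and naive T cells; each point is an array, the bar is the mean, and the CD24lo groups are shaded. Zbtb16, Klrd1, Trgv4, Il4 and Klrb1a stay low in all Foxp3+ groups, while S100a6 and Maf are high in lymph node Tregs (11.25 and 11.66 on average).

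Promoters of Xcl1 (a chemokine gene of NK and innate-like cells) and Nkg7, both assigned to the CD24lo gate, are shown with the T-box motif GGTGTGA in capitals as examples of such matches in that class. Xcl1 lies at chr1:164935473-164935772 (-), with the match 188 bases upstream of the start site, and Nkg7 at chr7:43436888-43437187 (+), with the match 13 bases upstream. The build and window are those given for Cish and Ccr6.
Xcl1: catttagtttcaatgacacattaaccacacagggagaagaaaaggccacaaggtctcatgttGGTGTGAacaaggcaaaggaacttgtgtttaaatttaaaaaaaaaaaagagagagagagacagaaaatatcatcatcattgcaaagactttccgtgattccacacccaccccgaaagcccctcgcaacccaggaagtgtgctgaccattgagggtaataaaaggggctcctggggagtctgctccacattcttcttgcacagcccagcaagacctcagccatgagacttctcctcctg
Nkg7: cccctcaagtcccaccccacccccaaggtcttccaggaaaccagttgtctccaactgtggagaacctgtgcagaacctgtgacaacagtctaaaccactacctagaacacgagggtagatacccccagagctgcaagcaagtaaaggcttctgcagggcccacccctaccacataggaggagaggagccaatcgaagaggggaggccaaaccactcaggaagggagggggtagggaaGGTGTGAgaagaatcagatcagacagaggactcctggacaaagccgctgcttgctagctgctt
The motif occurred on either strand in 3.98% of all promoter windows, in 4.38% of windows of the falling gate class and in 3 of the 16 windows of the cytotoxic list. It occurred in 2 of 23 windows of the NK receptor list and 1 of 22 of the innate-like cytokine list. Xcl1 read 5.70, 5.43 and 5.58 in Foxp3+ cells and 9.78, 9.19 and 9.23 in Foxp3- cells. It was not confined to the Foxp3- gate, with 8.87, 9.62 and 10.66 in Treg precursors. At CD24hi it read 7.03, 6.49 and 8.45 in Foxp3+ cells and 5.87, 5.48 and 5.20 in Foxp3- cells.

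Memory and migration genes moved both ways, with 6 rises and 9 falls among 24 measured and a median of -0.11. S100a6, a calcium-binding protein gene of memory and effector cells, read 7.71, 8.27 and 8.25 in Foxp3+ cells and 10.16, 10.31 and 10.41 in Foxp3- cells, a difference of -2.21 ± 0.50 (adjusted p = 0.0016). At CD24int it had been 1.85 higher and in lymph node it was 4.00 higher in Tregs. Lgals3 (galectin-3) differed by -3.52 ± 0.55 and Itga1 (the CD49a integrin chain) by -2.51 ± 0.23. Among the rises were Itgb1 (1.05 ± 0.25) and Itgb7 (0.84 ± 0.11), integrin chains of homing T cells. Maf, a factor of effector T cells, read 9.56, 9.83 and 9.82 against 11.73, 11.51 and 11.30. Its difference of -1.78 ± 0.43 was opposite to that at CD24int (1.53) and in lymph node (2.90).

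Among 20 genes of naive T cells, 8 fell and 6 rose, with a median of -0.20 that was -0.70 at CD24int. Pde3b, a phosphodiesterase gene, read 7.48, 7.50 and 7.76 in Foxp3+ cells and 12.44, 12.11 and 11.97 in Foxp3- cells. Igfbp4, which encodes a binding protein of insulin-like growth factors, read 8.11, 8.47 and 8.84 against 10.87, 11.45 and 11.67, and Lypd6b differed by -3.30 ± 0.21. These falls were seen at CD24int as well (-3.90, -3.96 and -3.91). The rises included Bach2, a repressor of effector genes, at 10.43, 10.61 and 10.67 against 9.02, 9.38 and 9.41. Bach2 differed by -0.06 at CD24int, where both groups were high (10.74 ± 0.15 and 10.80 ± 0.14, SD, n = 3), and Il6st, the shared receptor chain of IL-6, rose by 1.39 ± 0.14 against 0.38 at CD24int.

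Genes of receptor signalling, interferon response and cell cycle were read last. Of 18 genes induced by or feeding back on T cell receptor signals, 7 rose and 4 fell (median 0.22). Dusp4, a MAP kinase phosphatase, read 10.12, 10.81 and 10.55 against 4.87, 5.37 and 6.01, whereas Spry2, a feedback inhibitor of receptor signalling, read 3.85, 3.69 and 3.94 against 9.63, 8.95 and 8.77. Interferon response genes fell in 6 and rose in 3 of 15 (median -0.36), led by Oas2 at -1.86 ± 0.20. Cell cycle genes fell in 11 of 19 (median -1.05), for example Stmn1, a microtubule regulator of dividing cells, at -1.47 ± 0.19. At CD24int 14 fell, where 6.62% of all genes did. The count at CD24lo was 7 without Foxp3+ CD24lo replicate 2 or 3 or without Foxp3- CD24lo replicate 1 or 3. It was 18 when the compared groups were fitted alone and 17 with a replicate block. In lymph node, 9 of these cell cycle genes were instead higher in Tregs, as were 8.01% of all genes.

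**Figure D4:**
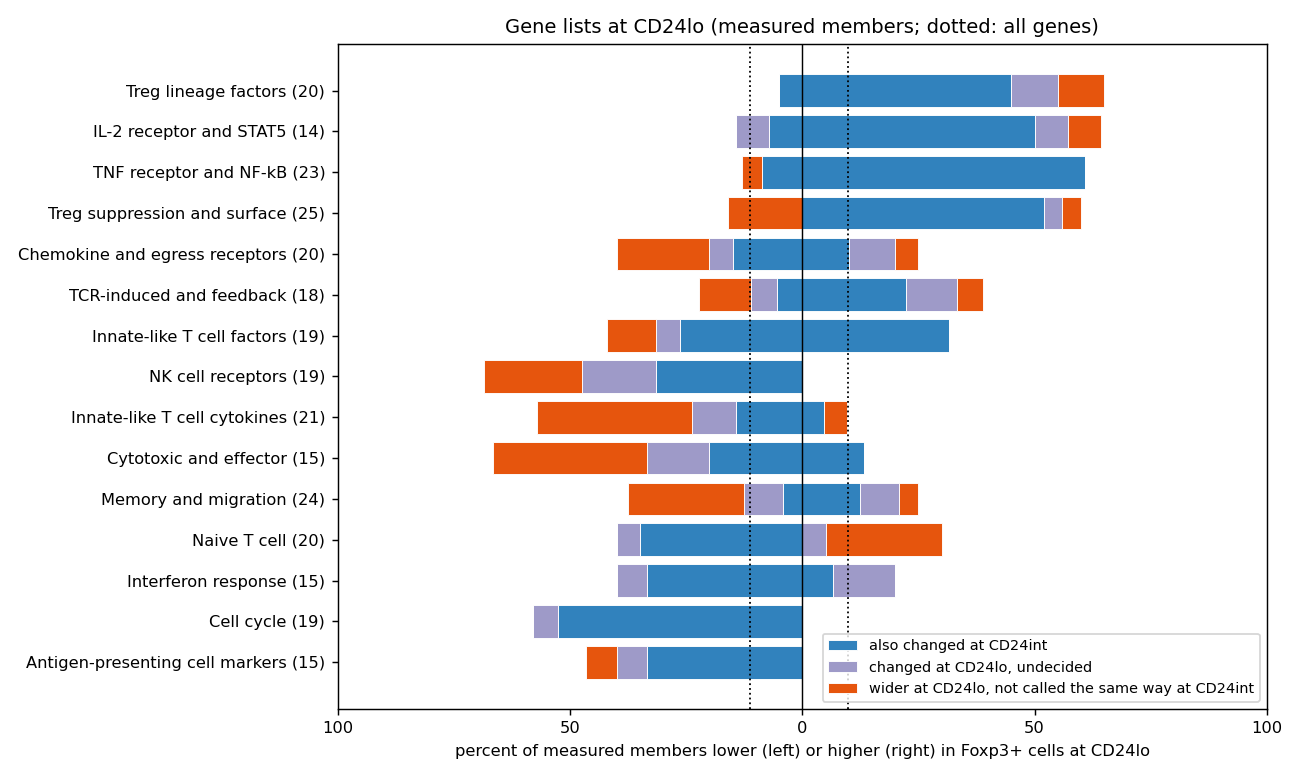
Percent of measured members of 15 gene lists that were lower (left) or higher (right) in Foxp3+ CD24lo cells, coloured by class; the number of measured members follows each name, and dotted lines mark the share over all genes (11.2% lower, 9.85% higher). Treg, IL-2 and TNF receptor lists extend to the right, while NK receptor, cytotoxic and innate-like cytokine lists extend to the left.

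Markers of other cells were read beside these results. Of 7 measured NK cell markers, 4 fell and 1 rose, and their summed linear intensity was 285 to 301 in the Foxp3+ CD24lo arrays and 755 to 1272 in the Foxp3- CD24lo arrays. The defining NK gene Ncr1 was low in both groups (3.93 and 4.76 on average), Klra8 and Itgam were near the bottom of the scale in both, and Eomes was the marker that rose. Of 15 antigen-presenting cell markers, 7 fell, with sums of 1218 to 1571 and 1570 to 2357; H2-Aa (-1.91 ± 0.32) and Siglech (-1.77 ± 0.35) led, and Ciita, Itgax and Adgre1, named after their values were seen, had group means between 3.79 and 4.72. Of 8 B cell markers 1 rose (Cd79b) and 1 fell (Blnk), with sums of 1535 to 1683 and 934 to 1316. Over all genes 9.85% rose and 11.2% fell. Thymic epithelial, erythroid and liver marker lists had median differences of 0.11, 0.14 and -0.08. The part of these cells in the differences was not tested.

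Genes of the alpha beta T cell receptor complex and its signalling moved both ways. Of 10 members, 2 rose and 4 fell, where 9.85% and 11.2% of all genes did, and the median was -0.01. Cd247 (the zeta chain, which Fc and NK receptors also use) read 10.89, 11.01 and 10.98 in Foxp3+ cells and 11.99, 11.98 and 12.04 in Foxp3- cells. Zap70, the kinase it recruits, differed by -0.97 ± 0.11. Cd3d and Lat differed by -0.02 and 0.00, and Cd5, whose level reflects the strength of self recognition, rose by 0.57 ± 0.12.

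The classes were then read in comparisons made on other arrays, which share with the class calls the variance estimate of the model. Of the 1052 shared rises, 70.7% were also higher at CD24hi and 60.1% were higher in lymph node Tregs than in naive cells, where 8.38% of all genes (18.0% in either direction) and 8.01% (12.4%) were. Of the 766 shared falls, 65.3% were lower at CD24hi and 41.3% in lymph node, against 9.65% and 4.35% of all genes. The 412 gate falls gave another picture: 12.1% were lower and 14.8% higher at CD24hi. In lymph node 7.28% of them were lower in Tregs and 28.2% (116 genes) were higher. Of the 133 gate rises, 21.1% were higher and 28.6% lower at CD24hi, and 13.5% and 21.8% in lymph node. These shares describe the classes and carry no test.

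**Figure D5:**
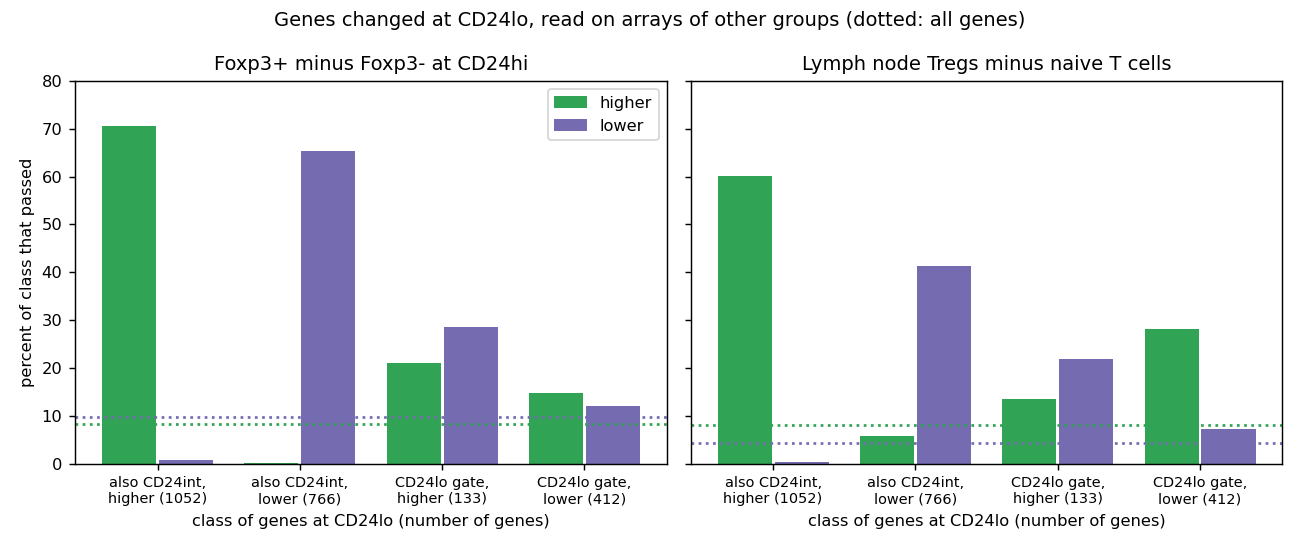
Percent of genes in each CD24lo class that passed as higher (green) or lower (purple) in Foxp3+ minus Foxp3- cells at CD24hi (left) and in lymph node Tregs minus naive T cells (right); dotted lines give the share over all genes and the number of genes is below each class. Of shared rises 70.7% (CD24hi) and 60.1% (lymph node) keep their direction, while gate falls are more often higher (28.2%) than lower (7.28%) in lymph node Tregs.

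Among gate falls that were higher in lymph node Tregs, Ccr4 differed by -1.44 at CD24lo and 1.62 in lymph node, Il12rb1 (an IL-12 receptor chain) by -1.50 and 1.57, and Tnfsf11 (RANKL) by -1.33 and 1.47. In all, 69 genes passed in opposite directions at the neighbouring CD24 gates, 59 of them higher at CD24int and lower at CD24lo. Beside S100a6, Maf, Nkg7, Fgl2, Pdcd1, Icos and Cd40 they included Cxcr3 (1.34 at CD24int and -1.36 at CD24lo) and Ctsw, the cathepsin W gene (0.70 and -0.82). For Cxcr3, Foxp3+ cells stood at 7.69 ± 0.58 and 8.19 ± 0.08 at these gates, while Foxp3- cells stood at 6.35 ± 0.92 and 9.55 ± 0.17 (SD, n = 3).

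Rises of the gate class were smaller than its falls. The largest were Afap1 (an actin-binding protein gene) at 7.36, 7.61 and 7.62 against 5.62, 5.57 and 5.93, and Smc4 (a condensin subunit gene) at 12.64, 12.45 and 12.76 against 10.95, 10.92 and 10.54. Ephb6, a kinase-inactive ephrin receptor of T cells, rose by 1.46 ± 0.13 and Ubash3a, a phosphatase that dampens T cell receptor signals, by 1.45 ± 0.14. Neither differed at CD24int beyond the threshold (-0.05 and 0.30). The survival gene Bcl2 (1.16 ± 0.14) and Foxo1, a factor that maintains naive and Treg homing genes (1.12 ± 0.11), were in the same class. In each of these genes the Foxp3- CD24lo arrays were the low group, and the Foxp3+ step from CD24int did not pass.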

How the data were processed

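Total RNA of sorted T lymphocytes was labelled from 50 ng and hybridised to Affymetrix 3' expression arrays, per the labels' protocols. The authors deposited linear intensity values; RMA is named in the submitters' processing notes, without a version. These intensities were put on the log2 scale. Each gene was represented by its brightest probe set with a single symbol in the platform annotation (34958 of 45101 probe sets, 18194 genes), with no filter on low values. Promoter windows came from RefSeq.

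A limma model (3.58.1, R 4.3.3) with 1 mean per group was fitted to all 27 arrays and all genes, with Benjamini-Hochberg adjustment over all genes and a threshold of 0.05. No probe's level was set against another's. In simulated data at these array numbers, 92.5% of genes changed by 1 log2 unit were recovered, 34.3% of those changed by 0.5, and 6.21% of called genes were unchanged ones. The simulation changed a far smaller share of genes than the 21.0% called at CD24lo, with independent noise for each array. These rates need not hold for the comparison itself.

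Named genes were Foxp3, Il2ra, Cd24a, Ccr6, Zbtb16 and Klrd1; the 15 largest rises and falls with non-overlapping arrays; the 10 largest rises and falls of the shared and gate classes; and, per list, up to 10 passing and 3 non-passing members (all of a list of 10 or fewer). The members and lists were chosen with earlier results of these data known. Alternatives were a mean over probe sets, quantile normalization, dim genes left out (mean under 5) and an added constant of 16. Others were the compared groups alone, a replicate block, an intensity trend and a 2-fold minimum. Each array of the CD24lo and CD24int groups, and Foxp3- CD24hi replicate 3, was also left out in turn.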

Additional observations from a re-analysis of the deposited data

Results flagged for a closer look

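For 27 genes the difference between Foxp3+ and Foxp3- cells at CD24lo was tested against that at CD24int in the limma model and differed (adjusted p under 0.05); each value below is the CD24lo difference minus the CD24int difference on the log2 scale. They are genes that were named by rule, so their number is no measure of how common such differences are.

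For genes linked to innate-like T cells the CD24lo difference lay below that at CD24int: Zbtb16 by -4.00, Klrd1 by -4.38, Klrb1a by -5.04, Xcl1 by -3.91, Il17rb by -2.85 and Tbx21 by -3.74. Not all of them had been lower at CD24int. The other large falls were Ctla2b (-4.56), the Notch ligand gene Jag1 (-4.15), Arap3 (-3.73), Amph (-3.78), the vitamin D receptor gene Vdr (-3.32) and the fatty acid binding protein gene Fabp7 (-3.46). Jag1 had the highest adjusted p of these (0.0022).

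A set of 5 genes passed in opposite directions at the neighbouring gates, higher in Foxp3+ cells at CD24int and lower at CD24lo. These were S100a6 (-4.06), Nkg7 (-3.33), Maf (-3.31), Cxcr3 (-2.70) and Ctsw (-1.52).

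Rises that were wider at CD24lo were F13a1 (1.81), Afap1 (1.63), Cnn3 (1.57), Ephb6 (1.52), Smc4 (1.42), Ubash3a (1.15), Mturn (1.13), Clic4 (1.06), Megf9 (1.06) and Ccdc88a (1.06). Ccdc88a and Megf9 lay closest to the threshold (adjusted p = 0.046 and 0.031).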

How the results depend on the processing

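No named gene reversed its direction while called. Of 258 named genes, 182 passed, and 221 kept their side of the threshold under all 13 settings tried for them. A minimum of 2-fold left 569 higher and 543 lower genes at CD24lo. Leaving out an array of the CD24lo groups gave 1482 to 1659 higher and 1654 to 1817 lower genes at CD24lo. Leaving out an array of the CD24lo or CD24int groups gave 861 to 1018 shared rises and 587 to 714 shared falls. It also gave 86 to 135 gate rises (86 without Foxp3- CD24lo replicate 1) and 327 to 426 gate falls. It gave 1236 to 1591 higher and 881 to 1218 lower genes at CD24int, and 176 to 262 higher and 527 to 637 lower for the difference of differences. Higher calls were 46.8% of calls at CD24lo, and 49.4% after quantile normalization.

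Whether replicate numbers pair the samples is not settled. Same-numbered arrays had correlations of their deviations of 0.278, 0.0988 and 0.272 at CD24lo and 0.27, -0.05 and 0.43 at CD24int, so not every pair was over 0.1, and Foxp3+ CD24lo replicate 2 correlated best with Foxp3- replicate 3 (0.15). In single genes, replicate 3 was the lowest array of its group for Ctla4 in 9 of 9 groups, and replicate 1 for Cd24a in 8 of 9. With the replicate block 2315 genes were higher and 2715 lower at CD24lo, against 1792 and 2037 without it. It also gave 1161 shared falls, 223 gate rises, and 514 higher and 1019 lower genes for the difference of differences. In lymph node Tregs it gave 1313 lower genes. The cause was not tested. With the block, Cd24a differed at CD24lo with an adjusted p of 2.4e-06 (limma). Values near the bottom of the scale limit NK receptors most: without dim genes 4 of the 19 remained, and all 4 fell.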

Other observations

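Among the 59 genes that were higher in Foxp3+ cells at CD24int and lower at CD24lo were several further genes of tissue and effector T cells, named here after their values were seen. Ahr, the aryl hydrocarbon receptor, differed by 2.25 at CD24int and -0.71 at CD24lo. Cst7 (cystatin F) differed by 1.34 and -1.85, and Niban1 by 2.82 and -0.86. In lymph node all 3 were higher in Tregs than in naive T cells, by 2.86, 2.59 and 3.48. Prg4, which encodes lubricin, differed by 2.67 at CD24int, -0.64 at CD24lo and 4.47 in lymph node, although it rose by 1.53 within Foxp3+ cells from CD24int to CD24lo.

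The mean of the Treg precursors entered none of the comparisons, but their scatter entered the model's estimate of the spread. These precursors had Zbtb16 at 6.97 ± 1.16 (SD, n = 3), a spread wider than that of the Foxp3+ CD24lo arrays (0.20). Replicate 3 was the lowest of them, at 5.65 against 7.46 and 7.80. The replicate 3 array was also the lowest for Zbtb16 in each Foxp3- thymic group.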
